A study of Mus musculus with 2 samples.

Results

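Kininogens, the C1 inhibitor and a set of coagulation and anticoagulant genes were followed across 2 arrays of mouse bone marrow derived macrophages. There were 10 such genes of 19871 with a symbol of their own on the array: Kng1, Kng2, Serping1, F3, F5, F7, F10, Tfpi, Thbd and Procr. They were selected on the measured difference between the same 2 arrays, in that the list was drawn up with those differences known, Kng1 and Serping1 being among the largest. Each gene was read from the row that carried its symbol alone. Their differences are therefore a description of these arrays and support no further statement.

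The study measured gene expression in macrophages grown from the bone marrow of mice aged 8 weeks. One array held control macrophages and 1 held macrophages labelled beta-catenin deficient, and both cultures grew in medium conditioned by L929, a mouse fibroblast line whose secretions include macrophage colony-stimulating factor. Neither the strain, the promoter that would drive a deletion, the deleted exons nor the number of mice behind a culture is given in the sources used here. The comparison asks which genes differ in macrophages when beta-catenin, the adhesion and Wnt signalling protein, is lacking.

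With 1 array per group no test was possible. A value is an RMA value on the log2 scale, and a difference is the array labelled deficient minus control. A difference of 1 is 2-fold. A gene was counted as higher or lower by a fold only where its brighter value reached 7.28. That floor is the table's overall median. No spread between cultures could be set beside any difference, and in RNA from a whole culture a change in the share of cells of one type cannot be told apart from a change in RNA per cell.

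Ctnnb1, which encodes beta-catenin, read 11.3 in control and 11.4 in the array labelled deficient, so it was not lower under that label. Axin2, a feedback gene of Wnt signalling, read 7.61 and 5.97, a difference of -1.64. It was thus lower under that label, with the second value below the floor. The Ctnnb1 value does not bear out the label, and where its probes lie relative to any deleted exon was not tested. Every direction given here rests on the label. Of 12 macrophage markers 11 reached the floor, and 10 of these lay within 1.5-fold. The exception to the floor was Marco, a scavenger receptor found on only some macrophages (6.73 and 6.15), named as the exception and outside the naming rule. The median difference over all genes was -0.15 as deposited and -0.00 after quantile normalization, and it was more negative among dim genes.

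Kininogens are secreted precursors that plasma kallikrein cuts to release bradykinin, a peptide that widens vessels and makes them leak. Most circulating kininogen, factor VII and factor X comes from the liver, while macrophages are known to carry tissue factor and to make some clotting factors. The C1 inhibitor is a serpin that blocks kallikrein, factor XII and the first proteases of complement, so it brakes both kinin release and complement. Tissue factor with factor VII activates factor X, which together with factor V makes thrombin, and Tfpi, thrombomodulin and the endothelial protein C receptor hold this cascade back.

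Both kininogen genes were higher in the array labelled deficient, and both were dim in control. Kng1 read 5.85 in control and 9.21 in the array labelled deficient, a difference of 3.36 or 10.2-fold. Kng2 read 6.37 and 8.76, a difference of 2.38 or 5.21-fold. Each control value lay below the floor, so both folds rest on a value in the dim range, and no measure of background was available to show whether the control signal exceeded it. With the control value raised to the floor, a setting chosen after the values were seen, the difference was 1.93 or 3.81-fold for Kng1 and 1.48 or 2.78-fold for Kng2.

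Kng1 and Kng2 are close copies that lie side by side on chromosome 16. Each was read by 1 row of the table, and 0 rows named both genes. The probe sequences are not used here, so how much signal the copies share was not tested, and the 2 differences cannot be read as separate measurements. The difference of Kng1 exceeded that of Kng2 by 0.97.

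**Figure D1:**
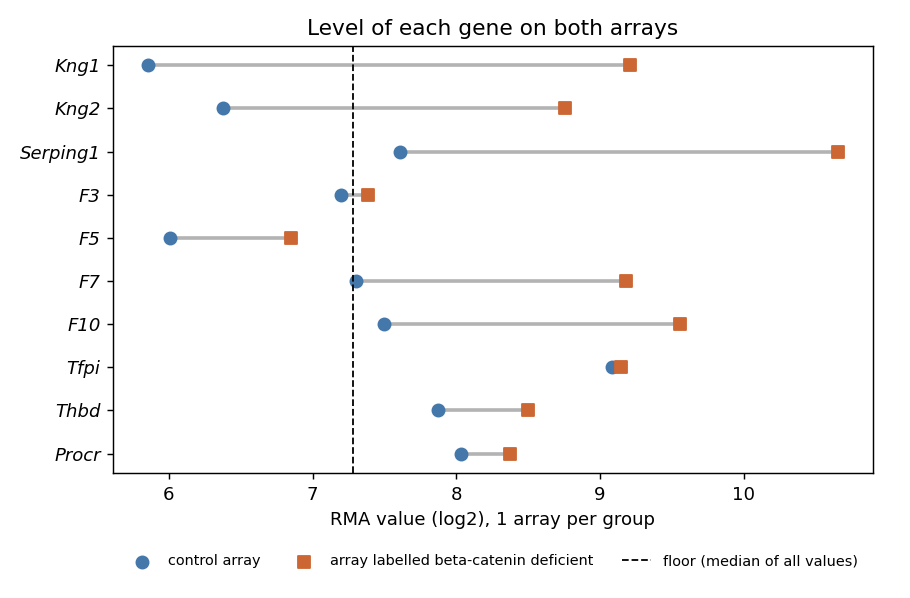
RMA value (log2, horizontal axis) of each of the 10 genes in the control array (circles) and in the array labelled beta-catenin deficient (squares), with 1 array per group and no error bar; the dashed line is the floor of 7.28. Kng1, Kng2, Serping1, F7 and F10 are joined by long lines, from 1.88 to 3.36, and Tfpi by the shortest at 0.06.

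Serping1, the gene of the C1 inhibitor, read 7.61 in control and 10.7 in the array labelled deficient. It differed by 3.04 or 8.25-fold, the fourth highest of all genes at or above the floor, and both values lay above that floor. Its row carried 1 symbol.

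The initiating arm of coagulation was divided. Tissue factor, F3, the cell surface receptor that starts clotting, read 7.19 in control and 7.39 in the array labelled deficient, a difference of 0.19, and the control value lay below the floor. F7, the protease that binds tissue factor, read 7.30 and 9.18, a difference of 1.88 or 3.67-fold. F10, the protease next in the cascade, read 7.50 and 9.56, a difference of 2.06 or 4.18-fold. F7 and F10 thus differed by similar amounts, 0.19 apart, while F3, the receptor of factor VII, was nearly level. F5, the cofactor of activated factor X, read 6.01 and 6.85, a difference of 0.84 with both values below the floor, so it entered no count.

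The 3 brakes on coagulation among the 10 genes differed by less than 2-fold. Tfpi, the inhibitor of the tissue factor and factor VII complex, read 9.09 in control and 9.14 in the array labelled deficient, a difference of 0.06. Thbd, thrombomodulin, which turns thrombin into an activator of protein C, read 7.88 and 8.50, a difference of 0.62 or 1.54-fold. Procr, the receptor that presents protein C to thrombomodulin, read 8.03 and 8.37, a difference of 0.34.

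In all, 9 of the 10 genes were at or above the floor. Of these 5 were at least 2-fold higher and 0 at least 2-fold lower, beside 2.96% and 1.59% among the 10658 genes that reached the floor. The 5 include Kng1 and Kng2, whose differences cannot be read as separate measurements and whose control values lay below the floor. At 1.5-fold the counts were 6 higher and 0 lower, beside 7.54% and 8.81% of all such genes. The genes were chosen from this contrast, and nothing is read from the gap between these shares. The median difference of the 9 was 1.88, against -0.08 over all genes at or above the floor.

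The differences were set beside those of genes of like brightness. Within 0.5 of the mean level of Kng1 there were 2963 other genes, whose median difference was -0.09 and of which 2.80% were at least 2-fold higher. Around Serping1 there were 2866 genes, with a median of -0.08 and 2.72% at least 2-fold higher. Around F5, which is dimmer, 4005 genes had a median of -0.17. Every one of the 10 differences was above the median of genes of like level, that of Tfpi by the least. The genes were chosen with these differences known, so nothing is read from that.

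**Figure D2:**
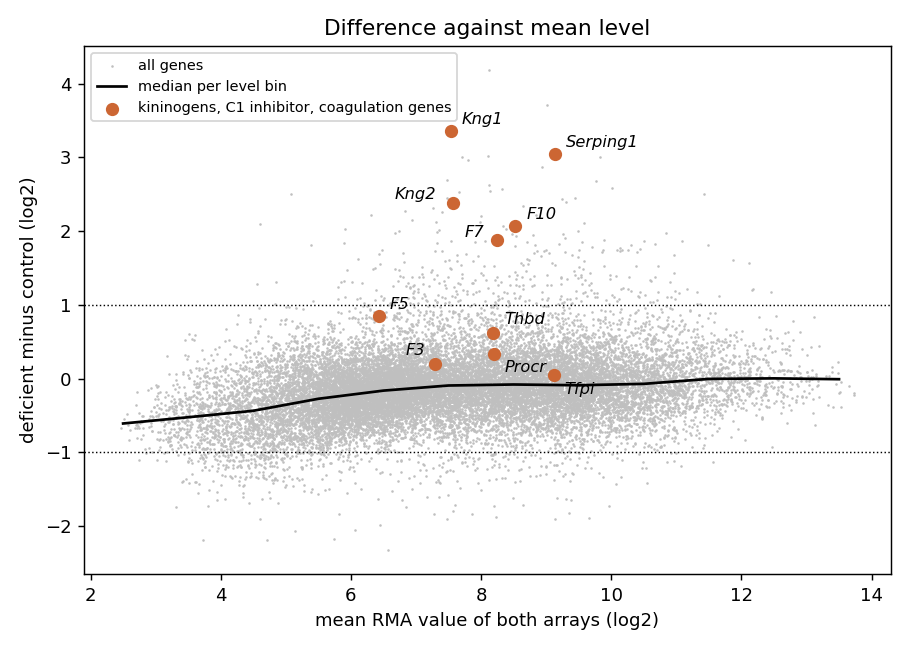
Difference of the array labelled deficient minus control (log2, vertical axis) against the mean RMA value of both arrays (log2, horizontal axis) for all genes (grey), with the 10 genes in colour, the median per level bin as a line and 2-fold differences dotted. The line lies near -0.09 where Kng1 and Kng2 lie, and falls to -0.52 among genes with a mean level from 3 to 4.

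Among the genes that were at least 2-fold higher, Kng2 and Kng1 follow each other among the protein-coding genes of chromosome 16, and F7 and F10 do so on chromosome 8. The genes were chosen on these differences, and those of the kininogens cannot be read as separate measurements, so nothing is read from the number of such pairs. On chromosome 16 the next genes were level or dim: Hrg, the histidine-rich glycoprotein, differed by -0.53 and Fetub by -0.22, both below the floor, and Eif4a2, a translation initiation helicase, differed by -0.15 and Rfc4, a clamp loader subunit, by -0.18. Beside F7 and F10, Mcf2l differed by 0.12, Atp11a by -0.10, Pcid2 by -0.18 and Proz, the gene of protein Z, by -0.39 with both values below the floor. Serping1 on chromosome 2 stood alone in the same way. Its neighbour Ube2l6, an enzyme that charges the ubiquitin-like ISG15, read 10.9 and 10.8, a difference of -0.08, and Clp1, Ypel4 and Smtnl1 differed by -0.11, -0.03 and -0.15.

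**Figure D3:**
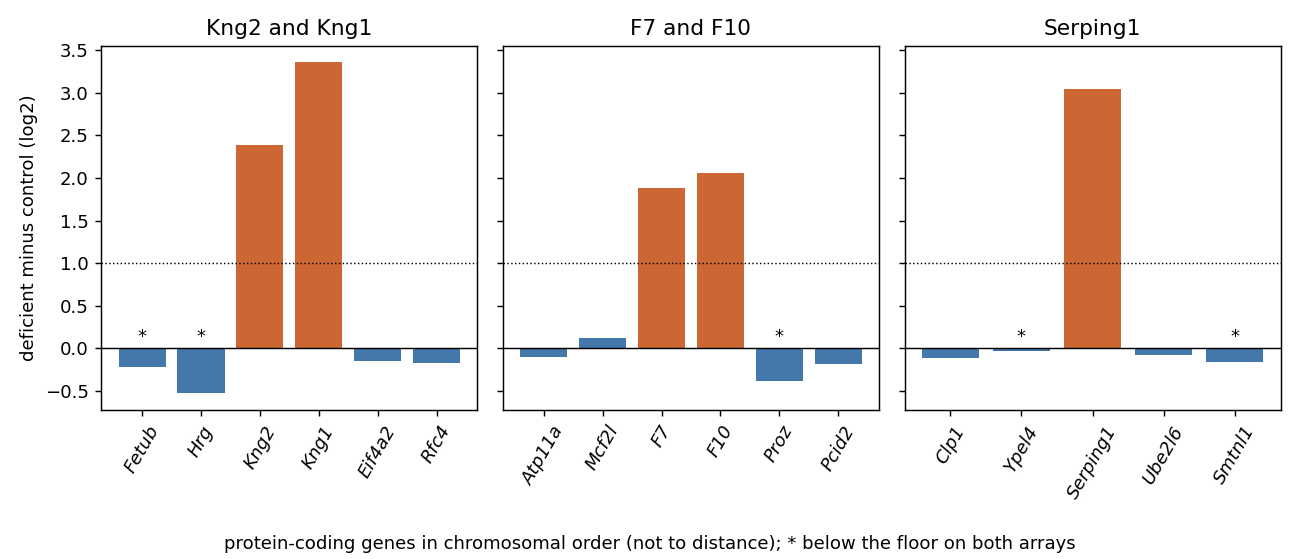
Difference of the array labelled deficient minus control (log2, bars) for Kng2 and Kng1, F7 and F10, and Serping1, each with the nearest 2 protein-coding genes on either side in chromosomal order. The 5 coloured bars lie between 1.88 and 3.36, and the other bars lie between -0.53 and 0.12.

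The regions just before the start sites of Kng2 and F10 are printed as examples of the 2 neighbouring pairs, 250 bases each, 5′ to 3′ on the gene's strand, from RefSeq with the build GRCm38.p6. Kng2 lies on the minus strand at chr16:23029102-23029351 and F10 on the plus strand at chr8:13037058-13037307.
Kng2: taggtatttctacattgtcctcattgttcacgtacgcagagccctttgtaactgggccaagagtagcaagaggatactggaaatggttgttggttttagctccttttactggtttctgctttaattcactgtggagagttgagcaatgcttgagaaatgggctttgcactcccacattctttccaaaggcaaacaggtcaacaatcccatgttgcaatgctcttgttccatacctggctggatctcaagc
F10: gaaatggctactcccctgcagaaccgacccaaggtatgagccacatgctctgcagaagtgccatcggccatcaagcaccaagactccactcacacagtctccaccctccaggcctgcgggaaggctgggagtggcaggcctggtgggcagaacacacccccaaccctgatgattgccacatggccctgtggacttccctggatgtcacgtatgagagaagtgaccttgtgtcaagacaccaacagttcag
The promoter table held 7 of the 10 genes in 8 windows. A script searched the 250 bases of each on both strands for CTTTGAT, a core of TCF/LEF sites, for TTCNNNGAA, a core of STAT sites, and for GAAANNGAA, a core of interferon response elements, of which the last 2 can overlap. There were 0 matches in the windows of Kng2, F7, F10, F3, F5, Tfpi and Procr, so no letters are in capitals. Of all 32851 windows of that length 3.21% held the first, 7.02% the second and 7.13% the third, and no match says only that these letters are not in these windows. G and C made up 44.4% of the Kng2 window and 57.6% of the F10 window, with a median of 52.4% over all windows.

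The rest of the kinin system gave no common direction. The counts of this and the following pathway lists stand beside those of all genes at or above the floor. Of all such genes 2.96% were higher and 1.59% lower at 2-fold, and 7.54% and 8.81% at 1.5-fold. Of 18 listed genes on the array, kininogens included, 8 were at or above the floor, and of the 6 other than the kininogens 1 was at least 2-fold higher and 1 at least 2-fold lower (median -0.07). Mme, neprilysin, a membrane peptidase that degrades bradykinin, read 5.68 in control and 7.96 in the array labelled deficient, a difference of 2.28. Mme reached the floor only in the array where it was higher, and with the floor set on the mean of both arrays 0 genes of this list other than the kininogens were at least 2-fold higher. Cpd, a carboxypeptidase of the Golgi and the cell surface, read 11.5 and 10.4, a difference of -1.12. C1qbp, a protein that binds kininogen at the cell surface, differed by -0.78. The following genes are named for their role and lie outside the naming rule. The kinin receptors Bdkrb1 (6.82 and 6.95) and Bdkrb2 (7.04 and 6.68) and the contact factor F12 (6.48 and 6.14) were below the floor on both arrays, as was the bradykinin-degrading enzyme Ace (7.05 and 6.22). Klkb1, the gene of plasma kallikrein, had no row of its own and was not analysed here.

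Among the targets of the C1 inhibitor, Masp1, a protease of the lectin pathway, was the highest. It read 6.79 in control and 8.46 in the array labelled deficient, a difference of 1.68. The C1q chains, which recognise the complexes that start complement, did not move together: C1qa differed by 0.08, C1qc by -0.11 and C1qb by 0.78. The proteases C1ra (5.91 and 6.54) and C1s1 (4.56 and 5.53), which the C1 inhibitor binds directly, were below the floor on both arrays. They and C1qb are named for their role, outside the naming rule. Leaving out Serping1, 4 of 9 genes of this list were at or above the floor. Of these 4, 1 was at least 2-fold higher, Masp1, and 0 lower, beside 2.96% and 1.59% of all genes at or above the floor. Masp1 reached the floor only in the array labelled deficient, and stayed in the count with the floor on the mean of both arrays.

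Other coagulation factors and the genes that process them were mostly within 1.5-fold or below the floor. Of 14 such genes other than F3, F5, F7 and F10, 7 were at or above the floor. Of these 7, 6 had a positive difference, 2 were at least 1.5-fold higher and 1 at least 2-fold. Lower by either fold were 0, and the median was 0.51. The shares over all genes at or above the floor were 7.54% and 2.96% higher, and 8.81% and 1.59% lower. F13a1, the crosslinking subunit of factor XIII that monocytes and platelets carry, read 9.93 in control and 11.3 in the array labelled deficient, a difference of 1.34. The lowest were Vkorc1, which recycles vitamin K, at -0.37, and Ggcx, the carboxylase that factors VII and X need, at 0.10. Prothrombin F2 (0.07) and the fibrinogen chains Fga (-0.09), Fgb (-0.27) and Fgg (-0.20) were below the floor on both arrays and are named for their role. Quantile normalization turned the sign of the 3 fibrinogen differences, and loess that of Fga and Fgg.

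Of the 9 other anticoagulant genes, 2 were at or above the floor. Pros1, the protein C cofactor protein S, read 8.48 in control and 9.54 in the array labelled deficient, a difference of 1.06, and Anxa5, which shields phosphatidylserine, differed by 0.09. Protein C itself, Proc (5.83 and 6.33), was below the floor and is named for its role. Among the receptors that thrombin and factor Xa cleave, F2r differed by 0.87 and F2rl2 by 0.60. Both genes that reached the floor thus passed 1.5-fold upward and 0 passed 2-fold, beside 7.54% and 2.96% of all genes at or above the floor. F2r read 6.82 and 7.70 and did not reach the floor on the mean of both arrays. In fibrinolysis 1 of 7 genes was at least 2-fold higher and 0 lower (median 0.12), beside 2.96% and 1.59%. Serpinb2, an inhibitor of plasminogen activators, read 7.14 and 8.21, a difference of 1.07. It reached the floor only in the array labelled deficient, and stayed in the count with the floor on the mean of both arrays. Plat, the tissue plasminogen activator, differed by 0.52, Plaur, the urokinase receptor, by -0.12, and Plgrkt, a plasminogen receptor, by -0.67.

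Over these 6 lists, the 10 genes left out, 28 of 60 genes were at or above the floor. At 2-fold 5 were higher and 1 lower, and at 1.5-fold 9 were higher and 3 lower. Among all genes at or above the floor 2.96% were higher and 1.59% lower at 2-fold, and 7.54% and 8.81% at 1.5-fold. The median difference of the 28 genes was 0.30, beside -0.08 over all genes at or above the floor. These lists were drawn up with earlier results of these data known, so nothing is read from these gaps. With the floor on the mean of both arrays 25 genes remained, 4 were higher and 1 lower at 2-fold, 7 higher and 3 lower at 1.5-fold, and the median was 0.12. Many of the listed genes are liver products, and 32 of the 60 were below the floor on both arrays.

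**Figure D4:**
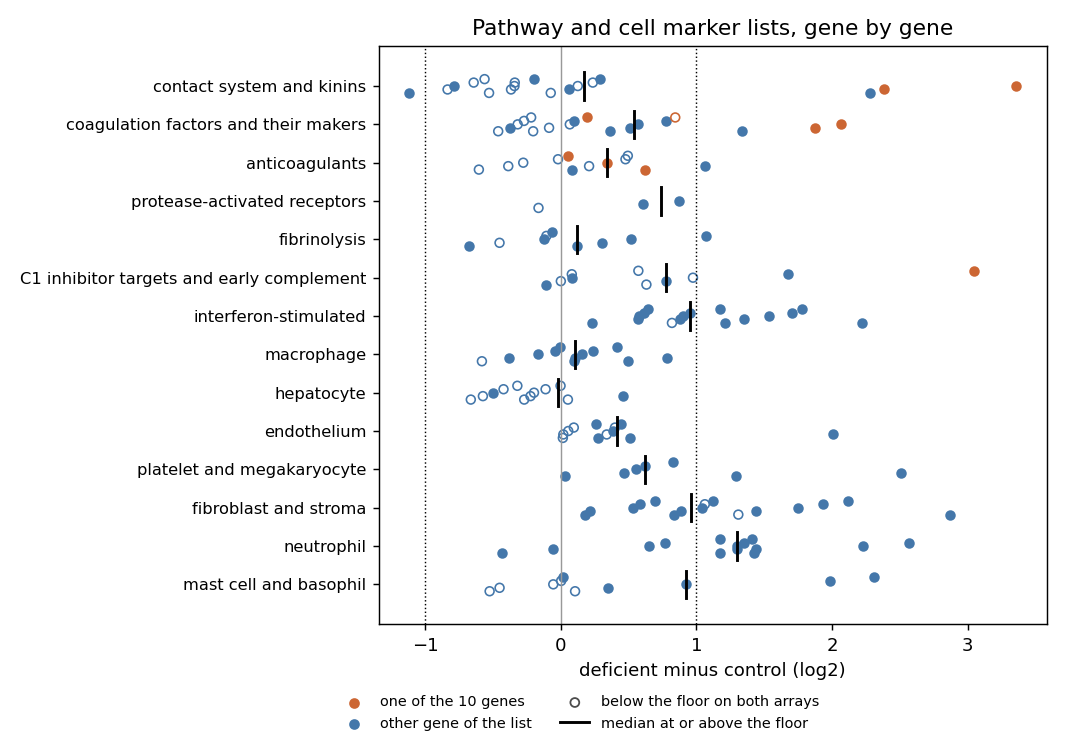
Difference of the array labelled deficient minus control (log2, horizontal axis) for each gene of the pathway and cell marker lists, with the 10 genes in one colour and the other genes in another, open circles for genes below the floor on both arrays and a bar at the median of the rest. The median is 0.18 for the contact and kinin list with the kininogens, and -0.07 without them, which is not drawn. It is 0.11 for macrophage markers, 0.96 for fibroblast and stroma markers and 1.30 for neutrophil markers.

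Markers of other cells moved in the same array as the kininogens, Serping1, F7 and F10, and their part in these differences was not tested. The marker counts at 1.5-fold stand beside 7.54% higher and 8.81% lower among all genes at or above the floor. The marker lists were drawn up with earlier results of these data known, so nothing is read from the gap between these shares. Of 12 hepatocyte markers, 10 were below the floor on both arrays, where a difference can show little. Albumin, Alb, named as the defining marker and outside the naming rule, read 4.82 and 4.82. The 2 above the floor were Trf, transferrin (0.46), and Apoa2 (-0.50). The summed linear level of the list, mostly Trf, was 3881 in control and 4873 in the array labelled deficient.

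Fibroblast and stroma markers were higher for 11 of 14 genes at 1.5-fold, with 0 lower, and their summed linear level was 14649 in control and 25950 in the array labelled deficient. Cxcl12 (2.87) and the growth factor receptor Pdgfra (2.12) were highest, and Thy1 (0.18) and Fn1 (0.22) lowest. Neutrophil markers were higher for 12 of 14 genes, with 0 lower, and summed to 8861 and 19125. Retnlg (2.57) and Mpo (2.22) were highest and Camp (-0.43) and Csf3r (-0.06, positive under centring, quantile normalization and loess) lowest. Platelet and megakaryocyte markers, of interest because platelets store clotting proteins, were higher for 4 of 7 genes, with 0 lower, and summed to 5973 and 13298. Those sums were mostly Pf4 (11.8 in control and 12.3 in the array labelled deficient) and Ppbp (10.2 and 12.7). Ppbp (2.51) and Gp9 (1.29) were highest and Itgb3 (0.03) and Pf4 (0.46) lowest. Pdgfra (6.92), Retnlg (7.04) and Gp9 (7.23) lay below the floor in control and reached it only in the array labelled deficient. With the floor on the mean of both arrays the counts higher at 1.5-fold stayed 11, 12 and 4 in these lists.

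Endothelial markers, of the cells best known for Thbd, Procr and Tfpi, were higher for 1 of 6 genes at 1.5-fold and lower for 0. That gene was Emcn, which read 5.74 in control and 7.74 in the array labelled deficient, and with the floor on the mean of both arrays the count was 0. Vwf differed by 0.51, Egfl7 by 0.27 and Eng by 0.26, and the list summed to 2052 and 2675. Of 5 mast cell and basophil markers at or above the floor 3 were higher and 0 lower, with Prss34 (2.31) and Cpa3 (1.98) highest and Hdc (0.02) and Gata2 (0.35) lowest. Prss34 (6.11 and 8.41) and Cpa3 (5.68 and 7.66) reached the floor only in the array labelled deficient, and with the floor on the mean the count was 1 of 3. The other 5 markers, below the floor on both arrays, differed by -0.52 to 0.11, and all 10 on the array summed to 914 and 1461. Macrophage markers summed to 47191 and 47388, with Fcgr1 (0.78) and Mrc1 (0.50) highest and Lyz2 (-0.38) and Spi1 (-0.17) lowest. No marker of any list stood at 0, since RMA gives every row a value.

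Interferon-stimulated genes were also higher in the array that had the higher Serping1, a gene known to respond to interferon. Of 15 at or above the floor 12 passed 1.5-fold upward and 0 downward, beside 7.54% and 8.81% of all genes reaching the floor. At 2-fold 7 were higher and 0 lower, beside 2.96% and 1.59%. The list was drawn up with earlier results of these data known, so nothing is read from these gaps. The median of the 15 was 0.95. The 7 at least 2-fold higher were Iigp1 (2.22), Irf7 (1.78), Oasl1 (1.70), Mx1 (1.53), Rsad2 (1.35), Ifit3 (1.21) and Usp18 (1.18), and Gbp3 (0.23) and Bst2 (0.57) were lowest. Iigp1 read 5.20 in control and 7.42 in the array labelled deficient, and with the floor on the mean of both arrays 6 genes were at least 2-fold higher. Their part in the difference of Serping1 was not tested.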

How the data were processed

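Per the submitters' processing notes, the deposited table holds RMA values, taken here as log2 from their range of 2.12 to 14.1. RMA corrects background, quantile-normalizes probes and summarises the probes of a transcript. The sources used here give no RMA version, settings or probe build, and do not say whether 1 run made both columns.

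Of 25917 rows, 21632 had 1 symbol in GEO's platform annotation, 1560 several and 2725 none. Updating symbols through Entrez IDs in RefSeq (GRCm38.p6) changed 0. Where a gene had several rows (947 of 19871), the row with the highest mean was kept. Each of the 10 genes had 1 row. The number of arrays limits the precision, and no p-value was computed.

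The members and the 14 lists were chosen with earlier results of these data known. Of 185 listed genes 168 had a row. The genes named are all 10, in each pathway list those at least 2-fold apart plus the 2 highest and 2 lowest at or above the floor, in each marker list the 2 highest and 2 lowest, Ctnnb1, Axin2 and the nearest neighbours; others are marked. With 2 arrays likeness of pattern was not measured. The comparison of the kininogen proteins that had been planned was not made, since no protein sequences were used here. Neighbours were taken among protein-coding genes. Python 3.11.15, pandas 2.3.3 and statsmodels 0.14.6 (loess, fraction 0.3) were used, and the counting was tested on simulated data. Alternatives were other floors, centring, quantile normalization, loess subtraction and other rows per gene, and, added after the values were seen, dim control values raised to the floor and the floor on the mean for the marker and interferon lists.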

Additional observations from a re-analysis of the deposited data

How the results depend on the processing

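With 1 array per group these settings change only the arithmetic and say nothing about the spread between cultures. All 10 differences stayed positive under quantile normalization and loess subtraction. Centring raised every difference by the same amount, and each of the 10 genes had 1 row. Neither centring nor the choice of row could therefore turn a sign. Kng1 ranged from 3.36 to 3.54, Serping1 from 3.04 to 3.13, Kng2 from 2.38 to 2.52, F10 from 2.06 to 2.15 and F7 from 1.88 to 1.97. F5 went from 0.84 to 1.04 under quantile normalization and 1.02 under loess, past 2-fold but below the floor. The 5 genes at least 2-fold higher became 4 with a floor at the 75th percentile (9.07), where Kng2 dropped out, and stayed 5 under the other settings. With the control value raised to the floor, an alternative chosen after seeing the data, Kng1 differed by 1.93 and Kng2 by 1.48, and both passed 2-fold. With the floor on the mean of both arrays, chosen afterwards for the marker and interferon lists, Mme, F2r, Emcn, Prss34, Cpa3 and Iigp1 left the counts at 1.5-fold. Among the 60 pathway genes other than the 10, those at least 2-fold higher fell from 5 to 2 and those at least 1.5-fold higher from 9 to 4 with the 75th percentile floor, and those at least 1.5-fold lower rose from 3 to 6 without a floor, because dim genes then count. Over all genes, those at least 2-fold higher and lower went from 315 and 169 to 184 and 72 with the 75th percentile floor, and 465 were lower without a floor. Dim control values, below the floor, limit Kng1, Kng2, F3 and F5; the floor is the table's median and not a measured background, and F7 in control (7.30) lay just above it. No paired analysis was possible because each group had 1 array.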

Other observations

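Genes of vitamin K-dependent proteins, which carry carboxylated residues that bind calcium and membranes, were looked at after the values of F7, F10 and Pros1 had been seen. Of 13 on the array 7 were at or above the floor. The 3 at least 2-fold higher were F7 (1.88), F10 (2.06) and Pros1 (1.06), the genes already seen. Their count was therefore known beforehand, and nothing is read from it beside the 2.96% of all genes at or above the floor. Of the 7, 1 was at least 2-fold lower, beside 1.59%. The lower gene was Prrg4, a membrane protein with such a domain, which read 7.40 in control and 5.87 in the array labelled deficient, a difference of -1.53, and which reached the floor only in control. Mgp, the matrix Gla protein, differed by 0.72, and Gas6, the ligand of the TAM receptors, by 0.33.

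Kininogens belong to the cystatins, inhibitors of cysteine proteases, and this family was likewise looked at afterwards. Of 10 cystatin and fetuin genes 5 were at or above the floor, and the 2 at least 2-fold higher were Kng1 and Kng2. Both were already known to be higher, so nothing is read from this count. Cst7, an inhibitor of cathepsins in leukocytes, differed by -0.87, Cstb by -0.31 and Cst3 by 0.04.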
